A study of Mus musculus with 21 samples.

Results

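Acrylamide was added to medium conditioned by microglia, and 1C11NE cells grown in that medium with acrylamide were compared with 1C11NE cells grown in the same kind of medium without it. The comparison holds 6 of the 21 libraries of the series, 3 of the group PBS-CM+ACR and 3 of the group PBS-CM, and every gene that passed a low-count filter was a member, which left 12550 of 24263 gene symbols. The question it addresses is how this neuronal model responds to acrylamide when substances released by microglia are present. 1C11NE cells are mouse 1C11 stem cells of strain 129 driven for 12 days along a noradrenergic programme by dibutyryl cAMP, dimethyl sulfoxide and a cyclohexanecarboxylic acid. In both groups the cells spent 24 h in medium taken from vehicle-treated BV2 cells, an immortalised microglial line of C57BL/6 origin, so both received whatever those cells released, and PBS (phosphate-buffered saline) was that vehicle. In PBS-CM+ACR acrylamide was added to the medium at 1 mM, and the labels name no extra vehicle for PBS-CM. The acrylamide effect without conditioned medium came from the groups ACR (1 mM for 24 h) and PBS (vehicle), with 3 libraries each. The labels call 1C11 a stem cell line and do not say that the libraries of a group came from separate cultures, so each p-value is set against the spread between libraries, which may be technical only.

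Acrylamide is an electrophile that reacts with the thiol groups of cysteine and is conjugated to glutathione. Modification of cysteines in the sensor protein KEAP1 releases the transcription factor NRF2, which pairs with small MAF proteins at antioxidant response elements and raises the transcription of enzymes that make glutathione, recycle thioredoxin, supply NADPH and clear quinones, carbonyls and iron. In the nervous system acrylamide is known for damage to nerve terminals and axons.

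The libraries held 4857056 to 5979286 counts in PBS-CM and 2762287 to 4334374 in PBS-CM+ACR, so the acrylamide group was measured less deeply. One library of each group stood apart. On the first principal component of the 15 libraries of 1C11NE, which held 43.1% of the variance, the coordinates were -27.2 for PBS-CM replicate 1 and -17.4 for PBS-CM+ACR replicate 3, against 14.0 to 41.1 for the rest of the conditioned-medium libraries. Ribosomal protein genes took 7.49, 12.6 and 14.3% of the counts of PBS-CM replicates 1 to 3 and 11.3, 11.6 and 8.36% of those of PBS-CM+ACR, so the libraries apart had the lowest share of their group. Counts of genes, and values of some single genes, are given with and without both. Of the neuronal markers, Ncam1 (neural cell adhesion molecule) lay between 411 and 850 CPM in the 6 libraries and Stmn1 (stathmin) between 332 and 665 CPM. CPM is the count after scaling to a common library size. In contrast, Nefl and Nefh (neurofilament) had 0 counts, and Snap25, Syt1, Stmn2 and Rbfox3 had 3, 5, 4 and 1 counts in the 6 libraries together. The noradrenergic markers Ddc, Slc6a2, Slc18a2, Phox2a and Hand2 had 10, 18, 21, 5 and 4 counts. Th and Dbh were not among the 24263 gene symbols and could not be analysed. The data thus go against a mature noradrenergic neuron, and the cells are called 1C11NE. The microglia genes Aif1, Ptprc, C1qa, C1qb, C1qc and Spi1, of which Spi1 stood at 166 CPM in vehicle-treated BV2 cells, had 0 counts, and the 22 microglia markers summed to 76.8 to 94.6 CPM in PBS-CM and 84.3 to 104 CPM in PBS-CM+ACR. Because these are bulk samples, fewer cells of a type and less RNA per cell cannot be told apart.

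Acrylamide in conditioned medium raised 22 genes and lowered 25. The 22 increases were mostly enzymes of the NRF2 programme, and the decreases included the noncoding RNA Neat1, the signalling regulator Rgs2, the renin-lineage genes Akr1b7 and Ren1, and the secreted axon factors Sema3c and Ptn. The 47 called genes were 0.375% of the 12550 tested (0.175% higher, 0.199% lower), at a Benjamini-Hochberg adjusted p below 0.05 in edgeR's quasi-likelihood test, and 1087 genes had an unadjusted p below 0.05. In every called gene the 3 libraries of one group lay wholly above those of the other, as in 10.6% of all genes tested (4.36% higher and 6.24% lower). The log2 changes of all genes tested had quartiles of -0.23 and 0.18 around a median of -0.02. With both libraries apart left out, 62 genes were called (25 higher, 37 lower, 0.486% of 12751), including 39 of the 47. The 8 not kept were C1qtnf12, Klf4, Msmo1, Ndrg1, Rin1, Sox4, Tinagl1 and a predicted gene. Other single libraries also moved the count. Leaving out PBS-CM replicate 2 gave 11 genes, leaving out PBS-CM+ACR replicate 1 or 2 gave 17 or 16, and leaving out PBS-CM+ACR replicate 3 gave 73. With no other group in the fit to share the spread, edgeR called 0 genes from the 6 libraries (536 at an unadjusted p below 0.05), whereas DESeq2 on all 15 called 130. In 11 genes the call was kept whichever of the 6 libraries was left out: Pmepa1, Nqo1, Srxn1, Prdx6, Blvrb, Gclm, Txnrd1 and Gsr among the increases, and Neat1, Rgs2 and Akr1b7 among the decreases.

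**Figure D1:**
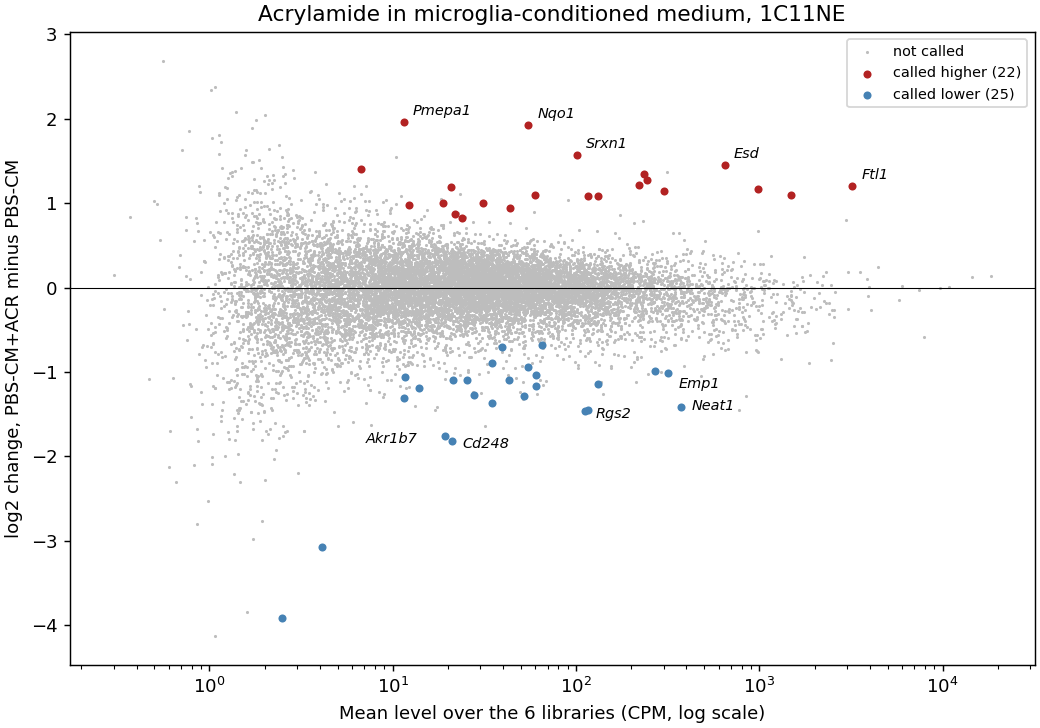
Log2 change of PBS-CM+ACR against PBS-CM (vertical axis) over the mean level of the 6 libraries in CPM (horizontal, log scale), 1 point per gene tested, with 22 genes called higher in red and 25 called lower in blue. The 4 genes with 0 counts in a whole group are not drawn. The called genes lie at both low and high levels, and the named ones are labelled.

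The 7 lists of NRF2-type enzymes held 84 tested genes, of which 15 rose and 0 fell (0.175% of all genes tested rose). Their median log2 change was 0.31, or 0.28 without 3 genes that had 0 counts in a whole group, against -0.02 for all genes tested, and 64 of the 84 lay above 0. The 3 libraries of PBS-CM+ACR lay above those of PBS-CM in 28 of the 84 (4.36% of all genes tested) and below them in 4 (6.24%), of which 2 were in NADPH supply. Summed over the lists, the level was 11378, 14614 and 17186 CPM in the 3 libraries of PBS-CM and 23325, 25124 and 20632 CPM in those of PBS-CM+ACR. Both libraries apart had the lowest sum of their group, and the groups did not overlap. Without those libraries 18 members rose and 0 fell. The lists and the expectation behind them were drawn up with earlier results of these data known.

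Promoter sequence of the called enzyme genes is shown because NRF2 binds a defined element there. The RefSeq table of mouse promoters (GRCm38.p6, 250 bases before to 50 after the start of a transcript) held 13 of the 15 called enzyme genes. The core searched was TGACNNNGC on both strands, with no other motif. It was found in windows of 5 of the 13 genes (38.46%), against 16.8% of the 9426 tested genes with a window. The share was 23.29% (17 of 73) over all tested genes of the enzyme lists, and 4 of 16 genes called lower held it. The 5 windows are printed 5′ to 3′ on the gene's strand, with the matched bases in capitals. They lie at chr2:152105274-152105573 (+ strand) for Srxn1, chr4:149166033-149166332 (- strand) for Pgd, chr3:122245307-122245606 (+ strand) for Gclm, chr10:82858956-82859255 (+ strand) for Txnrd1 and chrX:74428831-74429130 (- strand) for G6pdx. Pgd and Txnrd1 have further windows without a match.
Srxn1: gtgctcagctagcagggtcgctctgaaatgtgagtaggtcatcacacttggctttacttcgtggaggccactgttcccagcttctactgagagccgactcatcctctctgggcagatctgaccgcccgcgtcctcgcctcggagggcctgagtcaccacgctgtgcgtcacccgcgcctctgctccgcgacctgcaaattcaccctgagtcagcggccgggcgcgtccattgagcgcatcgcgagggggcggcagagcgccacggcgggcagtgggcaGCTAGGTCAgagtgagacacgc
Pgd: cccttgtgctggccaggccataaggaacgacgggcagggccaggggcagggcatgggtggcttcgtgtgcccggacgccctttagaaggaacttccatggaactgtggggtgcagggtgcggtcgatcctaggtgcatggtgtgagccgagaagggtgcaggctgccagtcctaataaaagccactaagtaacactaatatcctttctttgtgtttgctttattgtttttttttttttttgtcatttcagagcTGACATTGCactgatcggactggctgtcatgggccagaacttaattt
Gclm: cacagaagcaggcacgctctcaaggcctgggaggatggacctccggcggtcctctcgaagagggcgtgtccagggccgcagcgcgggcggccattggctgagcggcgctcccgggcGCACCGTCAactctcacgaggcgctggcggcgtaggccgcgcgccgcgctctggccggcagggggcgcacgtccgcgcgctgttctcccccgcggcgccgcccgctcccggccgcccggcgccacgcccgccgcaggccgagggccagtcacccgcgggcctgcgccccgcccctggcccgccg
Txnrd1: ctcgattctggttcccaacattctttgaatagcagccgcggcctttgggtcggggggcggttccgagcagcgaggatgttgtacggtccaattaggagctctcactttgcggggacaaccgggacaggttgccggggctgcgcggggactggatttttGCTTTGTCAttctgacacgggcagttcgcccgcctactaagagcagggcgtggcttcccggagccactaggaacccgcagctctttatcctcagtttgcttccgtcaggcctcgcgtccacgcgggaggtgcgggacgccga
G6pdx: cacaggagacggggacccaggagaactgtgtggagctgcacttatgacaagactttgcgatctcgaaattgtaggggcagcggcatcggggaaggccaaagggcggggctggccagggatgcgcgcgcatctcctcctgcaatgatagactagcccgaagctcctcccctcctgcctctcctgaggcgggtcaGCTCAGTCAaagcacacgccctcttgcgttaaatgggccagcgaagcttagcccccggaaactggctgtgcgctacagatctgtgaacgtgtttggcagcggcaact
The match lay on the gene's own strand in Pgd and on the opposite strand in the other genes. Its first printed base was at position 29 in Srxn1 and 4 in Pgd, after the annotated start of the transcript. In Gclm, Txnrd1 and G6pdx it was at -134, -92 and -57, before the start. A match describes these letters and is not a measured binding site, and the lack of one in this short window says nothing about NRF2 at those genes.

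Among the genes that make and recycle glutathione, 2 of 10 tested members rose and none fell. All 10 lay above 0, with a median log2 change of 0.88. Gclm encodes the modifier subunit of glutamate-cysteine ligase, which catalyses the limiting step of glutathione synthesis. Its level was 39.0, 41.8 and 32.9 CPM in PBS-CM and 72.9, 96.5 and 73.7 CPM in PBS-CM+ACR. The groups did not overlap, and the 2.14-fold rise corresponded to a log2 change of 1.10 ± 0.16 (SE; edgeR adjusted p = 0.00452). Gsr, glutathione reductase, which returns oxidised glutathione to its reduced form with NADPH, stood at 18.1, 22.0 and 21.6 CPM in PBS-CM and 47.0, 42.7 and 34.5 CPM in PBS-CM+ACR. Again every acrylamide library was higher (2.01-fold, log2 1.01 ± 0.16, edgeR adjusted p = 0.00809). Gclc, the catalytic subunit of the same ligase, and Slc7a11, the cystine importer that feeds it, did not pass the test with all libraries. Gclc was at 78.3, 56.8 and 43.3 CPM in PBS-CM and 107, 100.3 and 158 CPM in PBS-CM+ACR (log2 1.03 ± 0.23, edgeR adjusted p = 0.0693). Slc7a11 was at 258, 141 and 125 CPM in PBS-CM and 310.2, 301 and 745 CPM in PBS-CM+ACR (log2 1.37 ± 0.36, edgeR adjusted p = 0.151). In both genes the groups did not overlap but the libraries apart were the highest of their group, and without those libraries both passed (edgeR adjusted p = 0.0168 and 0.0274). Gss, glutathione synthetase, had a log2 change of 0.81 ± 0.19 and did not pass (edgeR adjusted p = 0.0754).

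Of the glutathione transferases, which attach glutathione to electrophiles, 2 of 19 rose and none fell. Both were pi-class genes, Gstp1 and Gstp2. Gstp1 was at 424, 629 and 760.0 CPM in PBS-CM and 1493, 1458 and 1138 CPM in PBS-CM+ACR. Its libraries separated, with PBS-CM replicate 1 the lowest of all, and the rise was 2.26-fold (log2 1.17 ± 0.24, edgeR adjusted p = 0.0372). Gstp2 rose 2.12-fold, from 84.4 ± 18.0 to 179 ± 31.0 CPM (SD, n = 3; log2 1.09 ± 0.19, edgeR adjusted p = 0.0161). The pair are near-identical copies, so the division of reads between them is uncertain. The mu-class gene Gstm1 was at 101, 123 and 145 CPM in PBS-CM and 239, 254 and 175 CPM in PBS-CM+ACR and did not pass with all libraries (edgeR adjusted p = 0.0761), although it did without those apart (0.0171). The alpha-class genes Gsta1, Gsta2 and Gsta3 had 0 counts in every PBS-CM library. In PBS-CM+ACR replicates 1 to 3, Gsta1 had 2, 2 and 1 counts, Gsta2 1, 1 and 0, and Gsta3 3, 4 and 2, which is too few for a fold change. Without conditioned medium the same acrylamide dose had given Gsta1 24, 32 and 27 counts against 1, 4 and 0 in PBS.

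Of the thioredoxins, peroxiredoxins and sulfiredoxin, 3 of 11 rose and none fell, with 10 of the 11 above 0. Srxn1 encodes sulfiredoxin, which restores overoxidised peroxiredoxins. It was measured at 46.1, 45.4 and 61.5 CPM in PBS-CM and 143, 169 and 141 CPM in PBS-CM+ACR. The lowest acrylamide library was above the highest control, and the rise of 2.97-fold (log2 1.57 ± 0.18) had the smallest adjusted p of all genes in edgeR's test (0.00165). Prdx6, a peroxiredoxin that reduces phospholipid peroxides, was at 107, 133 and 158 CPM in PBS-CM and 333, 392 and 287 CPM in PBS-CM+ACR. It rose 2.54-fold (log2 1.35 ± 0.20, edgeR adjusted p = 0.00486), with no overlap. Txnrd1, the cytosolic thioredoxin reductase, was at 68.9, 80.0 and 73.4 CPM in PBS-CM and 155, 169 and 146 CPM in PBS-CM+ACR, a separation wider than the spread within either group. The change was 2.12-fold (log2 1.08 ± 0.16, edgeR adjusted p = 0.00452). Prdx1 and Txn1, the major cytosolic peroxiredoxin and thioredoxin, did not pass, at log2 0.67 ± 0.25 and 0.38 ± 0.32. None of the 7 glutathione peroxidases, catalase and superoxide dismutases passed. The extracellular superoxide dismutase Sod3 was lower in every acrylamide library, at 270.2, 247 and 268 CPM in PBS-CM and 146, 168 and 148 CPM in PBS-CM+ACR (log2 -0.76 ± 0.18, edgeR adjusted p = 0.0945).

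NADPH supply contributed 3 of 10 tested genes, all of the pentose phosphate pathway, and none fell. Pgd, phosphogluconate dehydrogenase, which yields NADPH, was at 135, 127 and 134 CPM in PBS-CM and 284, 304 and 330.4 CPM in PBS-CM+ACR. The PBS-CM libraries were within a narrow range and all acrylamide libraries lay far above it (2.32-fold, log2 1.21 ± 0.19, edgeR adjusted p = 0.00683). Taldo1, transaldolase, which returns pentoses to glycolysis, was at 145, 190.3 and 229.7 CPM in PBS-CM and 429, 478 and 338 CPM in PBS-CM+ACR. Its groups did not overlap (2.20-fold, log2 1.14 ± 0.20, edgeR adjusted p = 0.0177). G6pdx, the X-linked glucose phosphate dehydrogenase that opens the pathway, was at 15.8, 13.5 and 17.2 CPM in PBS-CM and 34.4, 27.2 and 23.6 CPM in PBS-CM+ACR, a rise of 1.83-fold (log2 0.87 ± 0.17, edgeR adjusted p = 0.0372). Tkt (transketolase) and Me1 (malic enzyme) were higher in all 3 acrylamide libraries but did not pass, at log2 0.54 ± 0.15 and 0.52 ± 0.16. In contrast, 2 of the 10 members were lower in all 3 acrylamide libraries without passing, with log2 changes down to -0.45.

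Quinone and carbonyl detoxification gave 3 increases among 19 tested genes and no decrease. Nqo1 encodes the quinone reductase often used as a readout of NRF2. Its level was 16.4, 21.8 and 30.5 CPM in PBS-CM and 97.8, 105 and 57.2 CPM in PBS-CM+ACR. The libraries apart were the lowest of each group, yet all acrylamide libraries exceeded all controls, and Nqo1 rose 3.79-fold (log2 1.92 ± 0.25, edgeR adjusted p = 0.00216). Esd, the S-formylglutathione hydrolase that acts in formaldehyde clearance, was at 227, 363 and 456 CPM in PBS-CM and 982, 1036 and 833 CPM in PBS-CM+ACR. It rose 2.73-fold (log2 1.45 ± 0.24, edgeR adjusted p = 0.0111). Cbr3, a carbonyl reductase, was at 27.9, 27.1 and 34.3 CPM in PBS-CM and 53.5, 63.5 and 54.1 CPM in PBS-CM+ACR, again without overlap (1.92-fold, log2 0.94 ± 0.18, edgeR adjusted p = 0.0324). The aldo-keto reductase Akr1b8 had a log2 change of -0.40 ± 0.30 and did not pass.

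In haem breakdown and iron storage 2 of 8 tested genes rose and all 8 lay above 0. Blvrb, a biliverdin and flavin reductase, was at 114, 157 and 157 CPM in PBS-CM and 306, 372 and 354 CPM in PBS-CM+ACR. It rose 2.41-fold (log2 1.27 ± 0.20, edgeR adjusted p = 0.00696). Ftl1, the ferritin light chain that stores iron, was at 1509, 2031 and 2305 CPM in PBS-CM and 4571, 5029.8 and 3871 CPM in PBS-CM+ACR. All acrylamide libraries were higher (2.31-fold, log2 1.20 ± 0.22, edgeR adjusted p = 0.0177). Ferritin genes have processed copies in the genome, so their counts are uncertain where reads were shared. The heavy chain Fth1 was also higher in each acrylamide library, at 1836, 2194 and 2496 CPM in PBS-CM and 3593, 3971 and 3828 CPM in PBS-CM+ACR, but did not pass (log2 0.80 ± 0.20, edgeR adjusted p = 0.104). Hmox1, the inducible haem oxygenase, did not pass and its groups overlapped, at 128, 194 and 205 CPM in PBS-CM and 269, 277 and 192 CPM in PBS-CM+ACR (log2 0.48 ± 0.21).

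Of the 10 genes of the NRF2 regulators, Mafg alone passed. This small MAF partner of NRF2 was at 19.0, 15.7 and 17.2 CPM in PBS-CM and 30.0, 30.9 and 30.8 CPM in PBS-CM+ACR, and the acrylamide libraries lay within 1 CPM of each other above all controls (1.77-fold, log2 0.82 ± 0.16, edgeR adjusted p = 0.0358). The transcript of NRF2 itself, Nfe2l2, was at 75.5, 91.7 and 93.6 CPM in PBS-CM and 86.2, 81.4 and 54.8 CPM in PBS-CM+ACR, and Keap1 was at 199, 115 and 116 CPM in PBS-CM and 108, 109.7 and 198 CPM in PBS-CM+ACR. The groups overlapped in both, with log2 changes of -0.23 ± 0.18 and -0.05 ± 0.26. Sqstm1, the autophagy receptor that binds KEAP1, was higher in every acrylamide library at 140.1, 133 and 140.1 CPM in PBS-CM and 202, 208 and 211 CPM in PBS-CM+ACR without passing (log2 0.59 ± 0.17, edgeR adjusted p = 0.201).

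**Figure D2:**
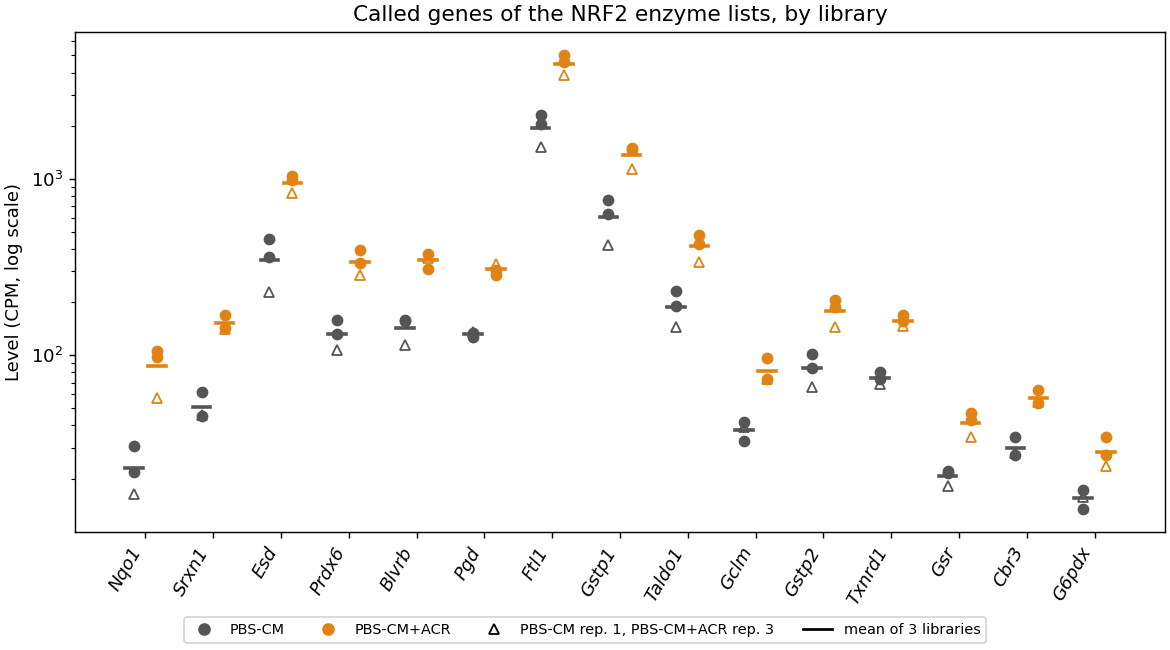
Levels in CPM (log scale) of the 15 called genes of the NRF2-type enzyme lists, 1 symbol per library, PBS-CM in grey and PBS-CM+ACR in orange, with a bar at the mean of 3 libraries. Open triangles are the libraries apart, which were mostly the lowest of their group, and the groups do not overlap in any of the 15 genes.

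Outside these lists, 7 genes rose. Pmepa1 encodes a membrane protein that TGF-beta induces and that dampens TGF-beta signalling. It was at 4.48, 4.95 and 4.61 CPM in PBS-CM and 16.0, 15.3 and 23.6 CPM in PBS-CM+ACR. The PBS-CM libraries lay within 1 CPM of each other and the rise was the largest among the called genes, at 3.88-fold (log2 1.96 ± 0.28, edgeR adjusted p = 0.00452). It was the only called member of the 24 tested genes of the TGF-beta, activin and BMP pathway. Smad7, another gene that TGF-beta induces, was at 115, 58.2 and 39.5 CPM in PBS-CM and 54.2, 60.1 and 142 CPM in PBS-CM+ACR with overlapping groups (log2 0.27 ± 0.39). Cholesterol synthesis gave 2 increases among 24 tested genes, of which 21 lay above 0 with a median of 0.27. Idi1, which isomerises isopentenyl diphosphate, was at 11.1, 12.6 and 14.0 CPM in PBS-CM and 35.8, 30.6 and 19.9 CPM in PBS-CM+ACR, a rise of 2.28-fold (log2 1.19 ± 0.20, edgeR adjusted p = 0.0126). Msmo1, a methylsterol oxidase, was at 8.32, 6.31 and 10.4 CPM in PBS-CM and 15.7, 18.3 and 14.9 CPM in PBS-CM+ACR and lay at the threshold (1.97-fold, edgeR adjusted p = 0.05). Hmgcs1, which catalyses an earlier step, had a log2 change of 0.39 ± 0.22 and did not pass. Tinagl1, a matrix-associated protein, was at 2.99, 3.58 and 4.41 CPM in PBS-CM and 8.52, 9.60 and 11.2 CPM in PBS-CM+ACR (2.66-fold, edgeR adjusted p = 0.0426). C1qtnf12, a secreted protein of the C1q and TNF-related family, was at 9.60, 12.6 and 15.4 CPM in PBS-CM and 30.0, 23.5 and 22.1 CPM in PBS-CM+ACR (2.00-fold, edgeR adjusted p = 0.0372). The remaining increase beside Mafg was the provisional symbol LOC100862446, at 732, 1031 and 1078 CPM in PBS-CM and 2191, 2159 and 1713 CPM in PBS-CM+ACR (log2 1.09 ± 0.21, edgeR adjusted p = 0.0358). It is named here after its values were seen, and the sources used here give no annotation from which its function could be read. Its raw counts were 3434, 6048 and 5379 in PBS-CM and 6429, 9446 and 5505 in PBS-CM+ACR. Those of Ftl1 were 7074, 11908 and 11501 in PBS-CM and 13412, 22004 and 12441 in PBS-CM+ACR. Whether LOC100862446 and Ftl1 share reads was not tested.

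The decreases fell into smaller groups. Neat1, the noncoding RNA that scaffolds nuclear paraspeckles, was at 570.2, 539 and 525 CPM in PBS-CM and 189.5, 208 and 217 CPM in PBS-CM+ACR. All acrylamide libraries lay far below all controls (2.66-fold lower, log2 -1.41 ± 0.18, edgeR adjusted p = 0.00216). Malat1, another noncoding RNA of the nucleus, was at 2332, 2618 and 2358 CPM in PBS-CM and 2794, 2592 and 2089.6 CPM in PBS-CM+ACR with a log2 change of 0.03 ± 0.20. Of 23 tested immediate early genes 2 fell and 18 lay below 0. Rgs2, which limits signalling by G-protein-coupled receptors, was at 119, 179.7 and 194 CPM in PBS-CM and 52.5, 73.1 and 52.6 CPM in PBS-CM+ACR. Its groups were well apart and it was 2.76-fold lower (log2 -1.46 ± 0.21, edgeR adjusted p = 0.00452). Klf4, a zinc-finger transcription factor, was at 89.4, 78.6 and 73.4 CPM in PBS-CM and 45.7, 51.0 and 54.1 CPM in PBS-CM+ACR (1.60-fold lower, edgeR adjusted p = 0.0482). Ier2, Jund and Ier3 were lower in all 3 acrylamide libraries without passing (log2 -0.61 ± 0.18, -0.44 ± 0.20 and -0.68 ± 0.17), whereas the groups overlapped in Junb and Fosl2.

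Of the genes of the renin lineage and of steroid-making cells, 2 of 7 fell. Akr1b7, an aldo-keto reductase of adrenal and renin-lineage cells, was at 21.3, 29.3 and 38.7 CPM in PBS-CM and 7.84, 8.91 and 9.65 CPM in PBS-CM+ACR. The acrylamide libraries were within a narrow range below every control (3.37-fold lower, log2 -1.75 ± 0.24, edgeR adjusted p = 0.00451). Ren1, renin, was at 91.5, 88.7 and 71.4 CPM in PBS-CM and 29.3, 36.6 and 46.4 CPM in PBS-CM+ACR (2.24-fold lower, log2 -1.16 ± 0.20, edgeR adjusted p = 0.0126). Ren2, its near-identical copy, was at 20.3, 28.5 and 37.7 CPM in PBS-CM and 17.4, 14.9 and 12.4 CPM in PBS-CM+ACR and did not pass with all libraries (edgeR adjusted p = 0.0749). Star, the sterol transporter of the mitochondrial membrane, was instead higher in each acrylamide library, at 20.0, 30.7 and 23.5 CPM in PBS-CM and 48.1, 43.4 and 35.8 CPM in PBS-CM+ACR, without passing (log2 0.77 ± 0.19, edgeR adjusted p = 0.113).

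Of the axon guidance and growth factors, 3 of 20 fell and none rose. Sema3c, a secreted semaphorin, was at 329.7, 358 and 385 CPM in PBS-CM and 193, 176 and 171 CPM in PBS-CM+ACR. All acrylamide libraries were lower (1.99-fold, log2 -0.99 ± 0.17, edgeR adjusted p = 0.0161). Ptn, the secreted growth factor pleiotrophin, was at 52.7, 82.5 and 84.8 CPM in PBS-CM and 32.7, 34.7 and 22.7 CPM in PBS-CM+ACR (2.43-fold lower, log2 -1.28 ± 0.21, edgeR adjusted p = 0.00845). Tenm4, a teneurin that takes part in cell contacts between neurons, was at 57.6, 30.7 and 29.3 CPM in PBS-CM and 14.0, 13.5 and 21.2 CPM in PBS-CM+ACR (2.42-fold lower, log2 -1.27 ± 0.25, edgeR adjusted p = 0.0358). In Tenm4 the libraries apart were the highest of their group. Gfra1, the receptor for the neurotrophic factor GDNF, followed the same order at 136, 78.6 and 67.7 CPM in PBS-CM and 27.6, 27.4 and 76.2 CPM in PBS-CM+ACR. It did not pass with all libraries (edgeR adjusted p = 0.28) and did without those apart (0.00463).

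Several decreases were in membrane proteins. Slc1a3, a glutamate transporter best known from glia, was at 31.1, 37.2 and 34.9 CPM in PBS-CM and 14.0, 16.0 and 18.4 CPM in PBS-CM+ACR. Every control exceeded every acrylamide library (2.13-fold lower, log2 -1.09 ± 0.20, edgeR adjusted p = 0.0182). Of its astrocyte and oligodendrocyte list Gfap, S100b and Olig2 had 0 counts. Other members were present, with Gja1 between 41.2 and 65.3 CPM and Cnp between 13.8 and 29.4 CPM in the 6 libraries. The summed level of the list was 110.2 to 120.5 CPM in PBS-CM and 80.5 to 101 CPM in PBS-CM+ACR. That sum includes Slc1a3 itself, whose mean went from 34.4 to 16.1 CPM, so it is no separate measure of the cell type. Aqp1, a water channel, was at 229, 165 and 152 CPM in PBS-CM and 63.4, 77.5 and 106 CPM in PBS-CM+ACR (2.21-fold lower, edgeR adjusted p = 0.0426). P2rx3, the ATP-gated cation channel of sensory neurons, was at 44.6, 50.5 and 40.3 CPM in PBS-CM and 19.1, 22.2 and 31.7 CPM in PBS-CM+ACR (1.86-fold lower, edgeR adjusted p = 0.0467). Cxadr, an adhesion protein that coxsackieviruses and adenoviruses use as a receptor, was at 15.8, 15.5 and 15.8 CPM in PBS-CM and 6.82, 5.71 and 10.3 CPM in PBS-CM+ACR (2.09-fold lower, edgeR adjusted p = 0.0372). Emp1, an epithelial membrane protein, went from 424 ± 41.1 to 210.1 ± 30.7 CPM (SD, n = 3; edgeR adjusted p = 0.0372). Cd248, or endosialin, a marker of stromal and mural cells, was at 48.2, 27.8 and 21.8 CPM in PBS-CM and 5.11, 6.63 and 16.2 CPM in PBS-CM+ACR (3.51-fold lower, log2 -1.81 ± 0.37, edgeR adjusted p = 0.0426). Its spread was wide, and the libraries apart were again the highest of their group. The stromal and mural list summed to 508 to 519 CPM in PBS-CM and 347 to 424 CPM in PBS-CM+ACR. That sum includes Cd248 itself, whose mean went from 32.6 to 9.31 CPM, and Vim, at 249 to 390 CPM in the 6 libraries. The part of stromal and mural cells in the fall of Cd248 was not tested.

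**Figure D3:**
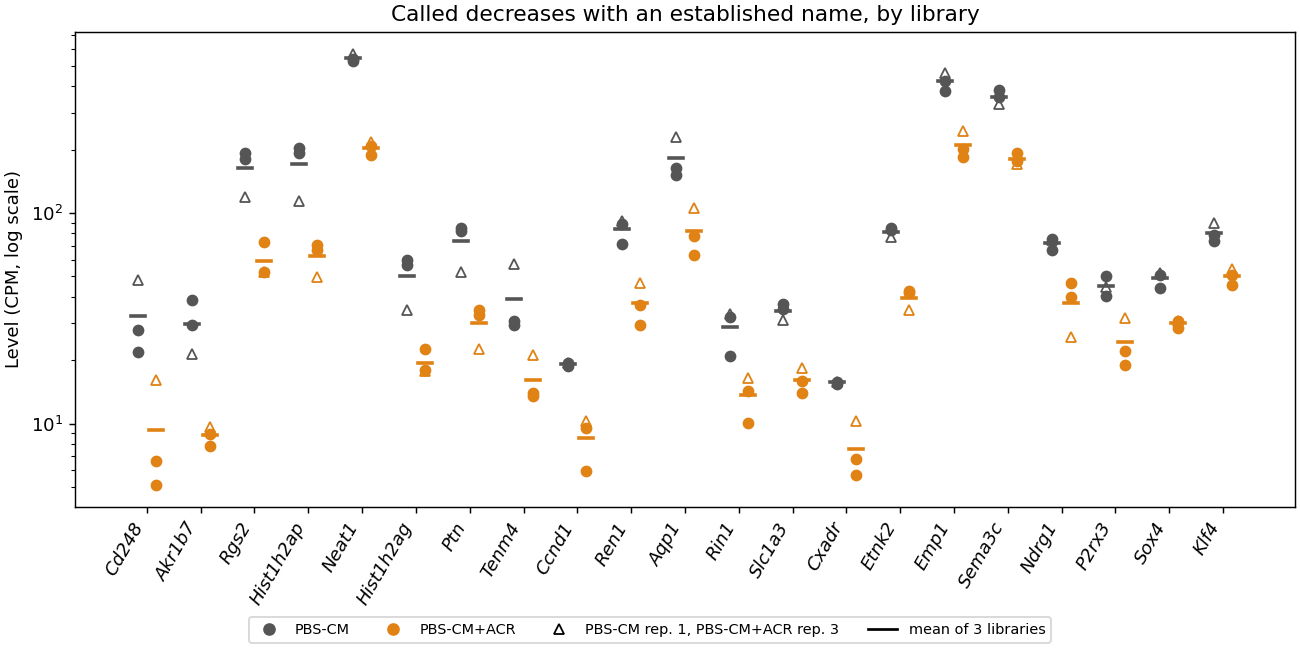
Levels in CPM (log scale) of 21 of the 25 called decreases, all but H2-T-ps and the 3 provisional symbols, 1 symbol per library, PBS-CM in grey and PBS-CM+ACR in orange, with a bar at the mean of 3 libraries. Open triangles are the libraries apart, and the groups do not overlap in any of the 21 genes.

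Of 37 tested genes of DNA replication and mitosis, only Ccnd1 passed. This D-type cyclin, which couples growth signals to entry into the cell cycle, was at 19.4, 18.8 and 19.4 CPM in PBS-CM and 9.54, 5.94 and 10.3 CPM in PBS-CM+ACR. Its control libraries agreed within 1 CPM and all acrylamide libraries were lower (2.27-fold, log2 -1.18 ± 0.22, edgeR adjusted p = 0.0265). Top2a and Mki67, which mark cycling cells, were at 548, 643 and 615 CPM in PBS-CM and 665, 641 and 389.5 CPM in PBS-CM+ACR and at 167, 141 and 129 CPM in PBS-CM and 177, 139 and 123 CPM in PBS-CM+ACR, with overlapping groups, so transcripts of dividing cells were present in both groups. The replication-dependent histones lay lower as a group. Of 37 tested histone genes 36 lay below 0, with a median log2 change of -1.03 against -0.02 for all genes tested, and in 25 the groups did not overlap (6.24% of all genes were lower without overlap). Only 2 passed the test, Hist1h2ap at 115, 193 and 203 CPM in PBS-CM and 66.5, 70.4 and 49.8 CPM in PBS-CM+ACR (log2 -1.45 ± 0.30, edgeR adjusted p = 0.0482) and Hist1h2ag at 34.5, 56.8 and 59.9 CPM in PBS-CM and 18.1, 22.6 and 17.7 CPM in PBS-CM+ACR (log2 -1.37 ± 0.28, edgeR adjusted p = 0.0477). Without the libraries apart, 6 of 38 passed and the median was -0.97. Histone genes of this class are near-identical copies whose mRNAs lack a poly(A) tail, so counts in a poly(A) library can be shared between copies and miss most of the mRNA.

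Other decreases were in genes of no shared group. Etnk2, an ethanolamine kinase of phospholipid synthesis, was at 77.0, 83.4 and 84.6 CPM in PBS-CM and 41.6, 42.7 and 34.8 CPM in PBS-CM+ACR (2.05-fold lower, edgeR adjusted p = 0.0103). Ndrg1, a gene known to respond to hypoxia and stress, was at 74.4, 66.8 and 75.2 CPM in PBS-CM and 39.9, 46.6 and 25.8 CPM in PBS-CM+ACR, with the lowest value in the library apart (1.92-fold lower, edgeR adjusted p = 0.0358). Rin1, which links RAS to RAB5 signalling, went from 28.8 ± 6.73 to 13.6 ± 3.27 CPM and Sox4, a transcription factor of progenitor cells, from 49.0 ± 4.25 to 30.0 ± 1.25 CPM (SD, n = 3; edgeR adjusted p = 0.0372 and 0.0358). H2-T-ps, a gene of the class I histocompatibility region, was at 13.4, 18.6 and 17.2 CPM in PBS-CM and 6.82, 6.63 and 6.53 CPM in PBS-CM+ACR (2.47-fold lower, edgeR adjusted p = 0.00696). Reads of related class I genes may be shared with it. The provisional symbols Gm40367, Gm40368 and 2210418O10Rik also fell, and are named after their values were seen. 2210418O10Rik went from 58.8 ± 9.74 to 27.6 ± 3.17 CPM (SD, n = 3; edgeR adjusted p = 0.0161). Gm40367 had the steepest fall among the called genes, from 4.68 ± 0.622 to 0.284 ± 0.315 CPM (SD, n = 3; edgeR adjusted p = 0.0112), and Gm40368 went from 7.40 ± 2.65 to 0.833 ± 0.457 CPM (SD, n = 3; edgeR adjusted p = 0.0192). Both rest on few counts in the acrylamide group.

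Many lists held no called gene. The 31 proteasome subunits, which degrade damaged proteins, had log2 changes from -0.13 to 0.46 with 26 above 0 and a median of 0.29, and none passed. Psmb5 had a log2 change of 0.35 ± 0.30, and Psma5 one of 0.46 ± 0.25. Of 13 collagens 12 lay below 0, with a median of -0.51. Col1a2 was at 2463, 1413 and 1162 CPM in PBS-CM and 558, 806 and 1441 CPM in PBS-CM+ACR, where the library apart of the acrylamide group reached into the control range (log2 -0.84 ± 0.35, edgeR adjusted p = 0.486). The 77 ribosomal protein genes had a median of -0.27 and 65 lay below 0. That list differed between libraries of the same group, as given above. No gene of the stress lists passed: 24 ATF4 targets (median -0.11), 17 endoplasmic reticulum chaperones (-0.01), 20 cytosolic heat shock proteins (0.06) and 19 p53 targets (0.04). Ddit4, a stress-induced inhibitor of mTOR on the ATF4 list, had a log2 change of -0.76 ± 0.21 (edgeR adjusted p = 0.19), and Cdkn1a, the p53-induced inhibitor of cyclin-dependent kinases, one of -0.44 ± 0.20. None passed among 14 NF-kB targets, cytokines and chemokines or 22 interferon-stimulated genes, with medians of 0.02 and 0.06. The NF-kB inhibitor Nfkbia had a log2 change of 0.12 ± 0.15. In the neuronal list (10 tested) and the noradrenergic list (6 tested) none passed, with Ncam1 at a log2 change of -0.50 ± 0.21 and Map1b at 0.48 ± 0.22. The 11 tubulins and 28 kinesin and dynein motor genes, which serve axonal transport, also held no call, with medians of 0.10 and -0.07.

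**Figure D4:**
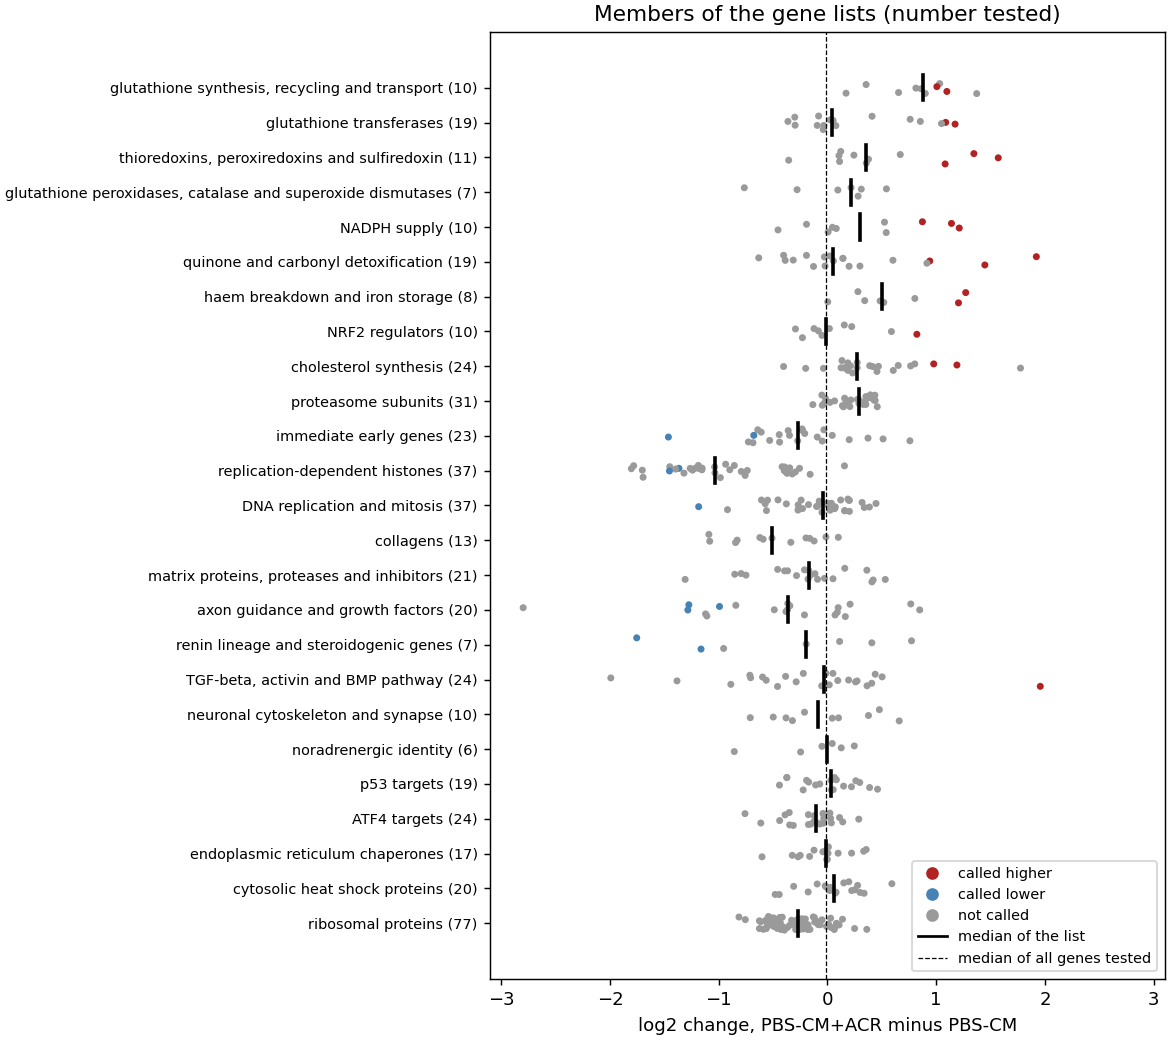
Log2 change of PBS-CM+ACR against PBS-CM for the tested members of 25 gene lists, 1 point per gene, with genes called higher in red, called lower in blue and the rest in grey. The black bar is the median of a list and the dashed line that of all genes tested, and Gsta1, Gsta2 and Gsta3 are left out because PBS-CM had 0 counts. Red points lie in the enzyme lists, Mafg, Pmepa1 and cholesterol synthesis, and the histone list is displaced to the left with few calls.

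The same dose and time without conditioned medium, ACR against PBS, called 148 genes (58 higher and 90 lower, or 1.18% of those tested, 0.462% higher and 0.717% lower). It shares no library with the comparison above, although a shared fit gave both their estimate of spread. Of the 47 genes, 31 were called in both with the same sign, which is 66.0% of the 47 and 20.9% of the 148, and 46 had the same sign. The exception was Pmepa1. Across all 12550 genes the log2 changes had a Pearson r of 0.475 and a Spearman rho of 0.430, where genes are not independent replicates. Among the 117 genes called without conditioned medium alone, 112 had the same sign with it, and their median size was 1.19 without it and 0.65 with it, both on the log2 scale. These 117 were chosen for their change without conditioned medium, so their smaller size in the other comparison is no independent measurement. Of the 22 increases, 15 were smaller with conditioned medium than without, and so were 12 of the 25 decreases.

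The difference between the 2 acrylamide effects was tested in the same fit. It called 0 genes in edgeR, with 347 at an unadjusted p below 0.05 and a smallest adjusted p of 0.242, while DESeq2 called 3. The median SE of that difference was 0.36 on the log2 scale, so differences of moderate size may go undetected. Those 3 were Pmepa1, Prdx6 and Nfatc2, named after their values were seen. Pmepa1 was at 6.12, 4.74 and 4.35 CPM in PBS and 4.48, 3.81 and 3.07 CPM in ACR. These groups overlapped, and the change without conditioned medium did not pass (log2 -0.43 ± 0.31, edgeR adjusted p = 0.653). The difference of the log2 changes was 2.39 ± 0.41 (SE, edgeR unadjusted p = 2.23e-05, edgeR adjusted p = 0.242). Prdx6 was at 88.6, 81.3 and 98.0 CPM in PBS and 603, 705 and 652 CPM in ACR, a rise of 2.87 ± 0.21 on the log2 scale against 1.35 ± 0.20 with conditioned medium, and the difference was -1.53 ± 0.28 (unadjusted p = 4.24e-05, edgeR adjusted p = 0.242). Nfatc2, a transcription factor of the calcium and calcineurin pathway, was at 14.3, 17.1 and 11.9 CPM in PBS and 2.24, 4.22 and 0.708 CPM in ACR, and at 20.0, 11.4 and 8.62 CPM in PBS-CM and 18.7, 14.9 and 23 CPM in PBS-CM+ACR. Its fall without conditioned medium (log2 -2.55 ± 0.44) stood beside overlapping groups with it (log2 0.50 ± 0.36, edgeR adjusted p = 0.776), and the difference was 3.05 ± 0.57 (edgeR adjusted p = 0.242). Without the libraries apart, edgeR called Prdx6 and Nfatc2 for this difference.

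Among the other called genes the 2 effects lay side by side as follows. Nqo1 changed by 1.92 ± 0.24 on the log2 scale without conditioned medium and by 1.92 ± 0.25 with it, and Srxn1 by 1.63 ± 0.18 and 1.57 ± 0.18, a difference of -0.06 ± 0.25 for Srxn1. Gclm changed by 1.89 ± 0.16 and 1.10 ± 0.16, and Blvrb by 2.13 ± 0.20 and 1.27 ± 0.20, where the differences of -0.79 ± 0.22 and -0.86 ± 0.28 did not pass (edgeR adjusted p = 1 for each). Ccnd1 changed by -2.55 ± 0.21 and -1.18 ± 0.22, a difference of 1.36 ± 0.30 (edgeR adjusted p = 0.6). The control levels of these genes differed too, which was not tested. Mean Blvrb was 77.3 CPM in PBS and 143 CPM in PBS-CM, but 339 CPM in ACR and 344 CPM in PBS-CM+ACR. Mean Ccnd1 was 57.0 CPM in PBS and 19.2 CPM in PBS-CM, but 9.65 CPM in ACR and 8.58 CPM in PBS-CM+ACR. Mean Gclm was 29.0 CPM in PBS, 37.9 CPM in PBS-CM, 107 CPM in ACR and 81.0 CPM in PBS-CM+ACR. H2-T-ps had log2 changes of -0.05 ± 0.19, which did not pass, and -1.30 ± 0.20 (difference -1.25 ± 0.28, edgeR adjusted p = 0.6). Rgs2 and Akr1b7 had log2 changes of -0.85 ± 0.21 and -0.82 ± 0.35 without conditioned medium, neither of which passed, and of -1.46 ± 0.21 and -1.75 ± 0.24 with it. Their differences of -0.61 ± 0.29 and -0.93 ± 0.44 did not pass either. Akr1b7 was at only 3.33 ± 1.09 CPM in PBS and 1.80 ± 0.186 CPM in ACR, against 29.8 ± 8.69 CPM in PBS-CM (SD, n = 3). Its change without conditioned medium thus rests on low counts. In the enzyme lists 22 of 84 genes rose without conditioned medium and 15 with it, and the difference of effects was above 0 in 20 of the 84, against 5792 of the 12550 genes tested. In the collagens it was above 0 in 13 of 13, where 4 fell without conditioned medium (median -1.18) and 0 with it (median -0.51), and none of these differences passed. The labels name different base media for 1C11 and BV2 cells, so the presence of microglial products and a change of base medium cannot be told apart here.

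**Figure D5:**
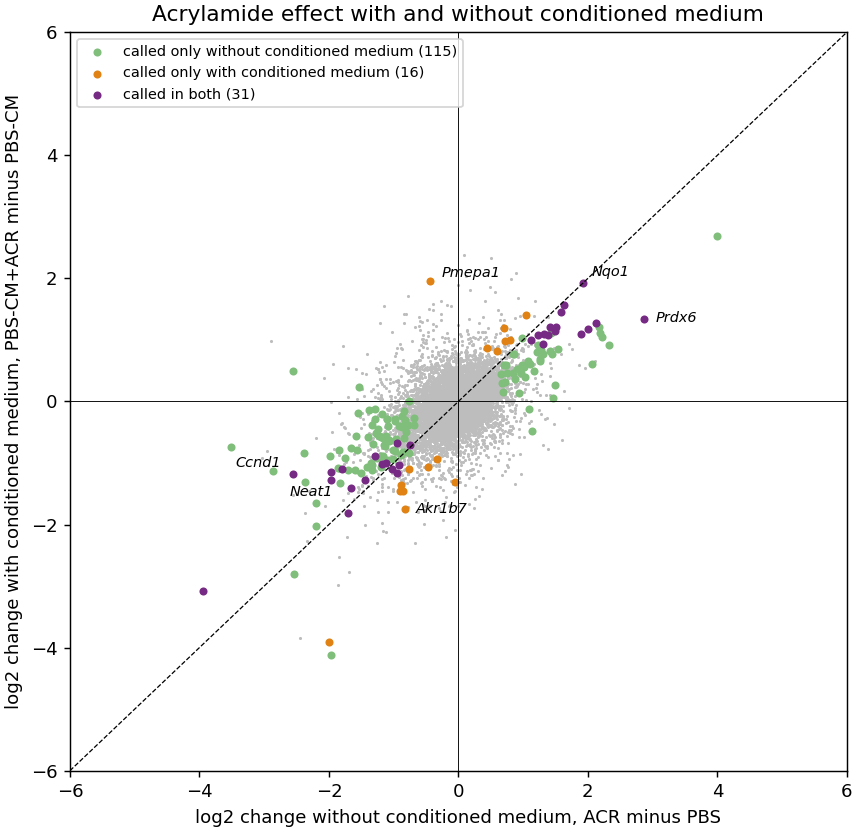
Log2 change by acrylamide with conditioned medium (vertical axis, PBS-CM+ACR against PBS-CM) over that without it (horizontal, ACR against PBS), 1 point per gene, with the line of equal change dashed. The 31 genes called in both are purple and changed in the same direction in both. Prdx6 and Ccnd1 among them lie nearer 0 on the vertical than on the horizontal axis, and 5 genes with 0 counts in a whole group are not drawn, Gsta1 and Gsta2 among them.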

How the data were processed

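RNA was measured by sequencing of poly(A) RNA in 21 libraries, per the labels' protocols captured on oligo(dT) beads, amplified, fragmented by enzyme and sequenced on an Ion GeneStudio S5. The authors deposited raw read counts per gene symbol, whole numbers with no normalization. Bowtie2 2.2.5 is listed in the submitters' processing notes. The sources used here do not give the genome build, annotation, counting program or use of strand, so reads of near-identical copies and of overlapping or antisense genes cannot be told apart.

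The 15 libraries of 1C11NE (5 groups of 3, from the sample titles) were fitted together, and this gave 12550 genes after edgeR's filterByExpr, TMM scaling, and edgeR's robust quasi-likelihood test (edgeR 4.0.16, limma 3.58.1, R 4.3.3). P-values were adjusted over all genes by Benjamini-Hochberg, with 0.05 as the threshold for a call. The biological coefficient of variation was 0.211. Levels are CPM after scaling, in replicate order 1 to 3 where 3 values are given, and log2 changes are ± SE. The script was tested on simulated data with known changes. Contrasts were PBS-CM+ACR minus PBS-CM, ACR minus PBS, and the former minus the latter.

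The members and the 40 gene lists were chosen with earlier results of these data known, so list counts and medians are descriptions. Named genes are all called genes with an established name, the called members of the lists and, for lists without one, some of up to 4 members with the highest level. Other uncalled members were named to show a pathway, after their values were seen. Replicates of a group differed by a chi-square statistic of 3.86 to 63.5 times its degrees of freedom over genes, above counting noise in every pair, so each library was counted as 1 sample. This does not show that the libraries came from separate cultures. Same-numbered libraries of both groups did not deviate together (r of -0.42, 0.28 and -0.56), so replicate numbers were not used as pairs. Promoters came from RefSeq on GRCm38.p6. Alternatives were other scalings, no filter, other tools (limma-voom, DESeq2 1.42.0), fewer libraries, a replicate block and single libraries left out. The group ACR-CM entered the fit and the principal components and the BV2 libraries the marker check, and neither was tested against another group.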

Additional observations from a re-analysis of the deposited data

How the results depend on the processing

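The log2 changes of the 47 called genes kept their direction in all 752 values over 16 alternatives each, and 523 kept the call while 229 lost it. RLE or upper quartile scaling, scaling without ribosomal protein genes and limma-voom gave 44 to 48 calls. Other choices moved the 47 calls of PBS-CM+ACR against PBS-CM by over 1.5 times: 136 with no low-count filter (30 higher, 106 lower), 130 in DESeq2 (47 higher, 83 lower), 0 with the 6 libraries alone (536 at an unadjusted p below 0.05), and 219 with a term for the 2 libraries apart, which was added after the data were seen. The 15 enzyme increases became 0 with the 6 libraries alone and 26 calls (25 higher, 1 lower) with that term. With the replicate number as a block there were 21 calls (12 higher, 9 lower), and 10 enzyme genes; the numbers do not pair the samples. Leaving out single libraries gave 11 to 73 calls (11 without PBS-CM replicate 2, 17 and 16 without PBS-CM+ACR replicates 1 and 2, 73 without replicate 3) and 7 to 18 enzyme genes (7, 9 and 8 without the first 3 of these). A group then holds 2 libraries, whose spread is taken from the shared fit. The 148 calls of ACR against PBS became 351 with no filter, 336 in DESeq2, 362 with 6 libraries, 594 with the term and 554 without both libraries apart, and 71 to 109 with a library left out. The 0 calls for the difference of effects became 2 with no filter (Nfatc2, Pmepa1), 3 in DESeq2, 4 with the term, 2 without both libraries apart and 0 to 2 with a library left out (Nfatc2 and Prdx6 without PBS-CM replicate 1). The cause of these moves was not tested. Totals of 2762287 to 5979286 counts limit what genes of a few CPM can show. No Dixon test of outliers applied to groups of 3.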
